A study of Mus musculus with 6 samples.

Results

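Adamdec1, Pla2g7 and Nrn1 encode proteins that act outside the cell or at its surface, and they were chosen by their difference in log2 intensity between cells meant to express an active Notch1 domain and control cells. Adam28, the chromosomal neighbour and relative of Adamdec1, was added for that kinship and not for its own difference. The platform annotation assigned 5 probe sets to these 4 genes, of 45101 probe sets and 18194 named genes in the table. Adam28 has 2 of these probe sets and each of the other genes has 1. Because the difference between the genotypes chose Adamdec1, Pla2g7 and Nrn1, their values are given as a description without a test.

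The cells were LGMP, the sorted progenitor fraction of a mouse leukaemia model, gated as lineage-negative, cKit+, Sca1-, YFP+, CD34+ and FcgRII/III+ bone marrow cells. Marrow cKit+ cells infected with MLL-AF9-IRES-YFP, which couples a leukaemia fusion oncogene to a yellow fluorescent protein, were placed in lethally irradiated wild-type recipients of 12 weeks, 50000 cells each, with 250000 wild-type support marrow cells. The WT group (n = 3) came from EF1α wt/wt ROSA wt/CreERT2 mice and the N1-IC group (n = 3) from EF1α wt/lsl-N1-IC ROSA wt/CreERT2 mice, where N1-IC is the intracellular domain of Notch1. Both groups carried MLL-AF9 and the tamoxifen-dependent Cre recombinase CreERT2, and both received 2 tamoxifen injections of 0.2 mg per g of body weight from 4 weeks after transplantation, with analysis 6 days after the last. CreERT2 in the ROSA locus is not restricted to a blood lineage, the gate as labelled holds no marker of recombination, and the number of recipients behind a sample is not given, so the spread between samples may be partly technical. The labels give male for each WT sample and female for each N1-IC sample, so genotype and sex cannot be told apart in any difference below. Single WT arrays stood apart. WT replicate 1 had a summed intensity of late granulocyte markers of 7280, against 50163 to 67456 on the other arrays. WT replicate 2 had a sum of erythroid and megakaryocyte markers of 12742, against 526 to 1162 elsewhere, and a level of Xist, the RNA that coats and silences the inactive X chromosome of female cells, of 10.70 log2 units, against 5.42 and 5.64 on the other WT arrays and at least 12.73 in N1-IC. The same array read 10.34, 6.88 and 6.70 for the Y-linked genes Eif2s3y, Kdm5d and Uty, the lowest of the WT arrays but far above the 2.73 to 3.46 of the N1-IC arrays. The library labelled WT replicate 2 thus held RNA of a Y-bearing source together with Xist, and whether it mixes material of both sexes was not tested. Results without these arrays are given with the others.

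Notch receptors are cut after they bind a ligand, and the freed intracellular domain enters the nucleus and joins the DNA-binding protein RBPJ to switch on genes such as Hes1 and Nrarp. ADAM proteins are zinc metalloproteases, mostly anchored in the membrane, and some of them make the first of these cuts. Adamdec1 (ADAM-like, decysin 1) is a shortened, secreted ADAM known from macrophages, maturing dendritic cells and gut stroma, and it is thought to have arisen from a duplicate of Adam28. Pla2g7 encodes the secreted phospholipase that inactivates platelet-activating factor (PAF) and clears oxidised phospholipids in plasma, and macrophages are a main source of it. Nrn1 encodes neuritin, a small protein held at the membrane by a glycosylphosphatidylinositol (GPI) anchor, known for neurite outgrowth in neurons and also found on regulatory T cells.

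RefSeq promoter windows of assembly GRCm38.p6 held an entry for 1 of the 4 genes, Pla2g7. Its sequence is shown because Pla2g7 is the gene of the set for which a regulatory window could be searched for the RBPJ motif. The window lies at chr17:43568201-43568500 on the + strand and runs from 250 bases before the annotated start to 50 bases from it. Capitals mark the transcribed 50 bases.
Pla2g7: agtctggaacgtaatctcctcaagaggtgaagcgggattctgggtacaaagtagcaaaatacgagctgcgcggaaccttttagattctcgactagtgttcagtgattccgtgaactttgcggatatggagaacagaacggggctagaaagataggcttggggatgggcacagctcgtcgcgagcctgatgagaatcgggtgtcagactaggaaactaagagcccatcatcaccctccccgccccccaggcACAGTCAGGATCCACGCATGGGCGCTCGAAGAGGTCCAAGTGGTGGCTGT
The window had 17 CpG pairs and a GC content of 54.0%, against medians of 7 and 52.7% over all 32851 windows, and 68.6% of windows had fewer CpG pairs. Neither the RBPJ core TGGGAA, nor the longer GTGGGAA that contains it, nor the PU.1 core GAGGAAG was found on either strand. These letters occurred in 25.6%, 6.38% and 13.6% of all windows, in that order. Of the Notch targets in the same table, Hes5 had GTGGGAA once on each strand, while Nrarp, Dtx1 and Notch3 had 0 matches to TGGGAA. A window without these letters says nothing about binding elsewhere in the gene.

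Adamdec1 was near the bottom of every WT array and near the top of the N1-IC arrays. In WT replicates 1, 2 and 3 its intensities were 13.2, 13.3 and 8.27, against 1230.5, 6556.0 and 7434.9 in N1-IC replicates 1, 2 and 3. On the WT arrays between 10.5% and 22.8% of all probe sets were dimmer than Adamdec1, and on the N1-IC arrays between 86.0% and 98.4% were. The groups lay far apart, with a gap of 6.53 log2 units between the highest WT and the lowest N1-IC array, and replicate 1 was the lowest of the N1-IC arrays. On the log2 scale the means were 3.5 ± 0.391 in WT and 11.93 ± 1.45 in N1-IC (SD, n = 3), a difference of 8.43 ± 0.70 (limma's moderated standard error). This was the largest positive difference of all 18194 genes. Next in that order came Xist, at 5.52.

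How much of the 8.43 is a true fold change cannot be read from these arrays, because it is unknown whether the WT signal exceeds background. The Y-linked genes Eif2s3y, Kdm5d and Uty, which the labelled female samples should lack, read 2.73 to 3.46 log2 units on the N1-IC arrays, and Adamdec1 read 3.72, 3.73 and 3.05 on the WT arrays. The lowest WT value of Adamdec1 lay inside that range and the other values lay just above it, and detection calls were not used here. With 16 or 64 intensity units added before taking logarithms, the difference was 7.16 or 5.73 log2 units.

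**Figure D1:**
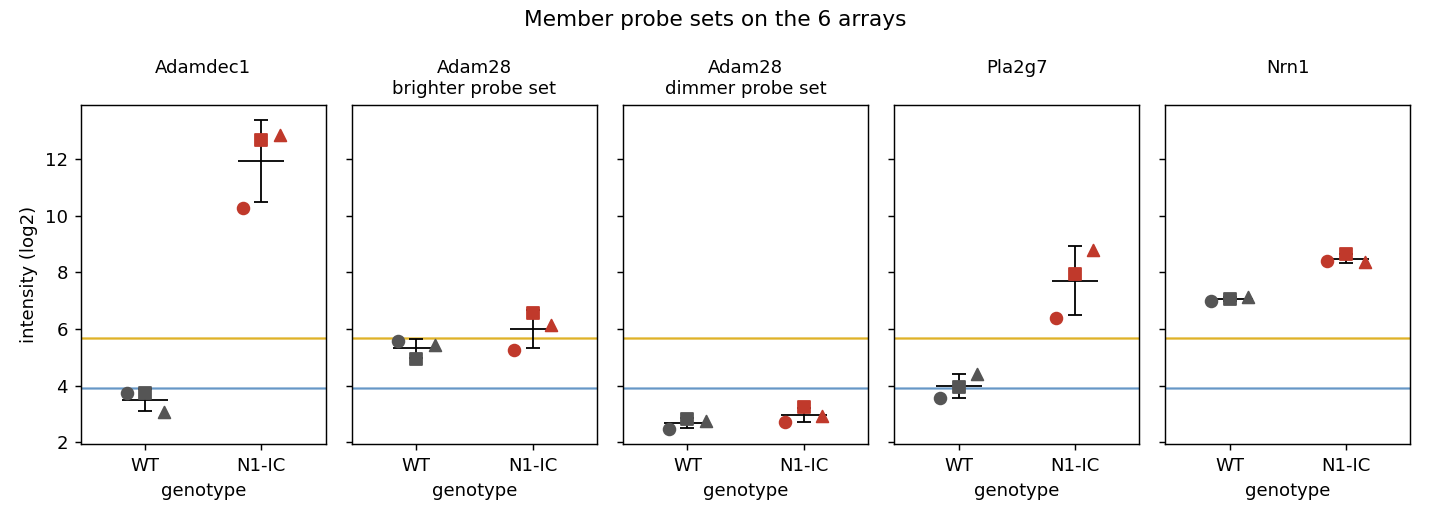
Log2 intensity of each member probe set (vertical axis) on the 3 WT (grey) and 3 N1-IC (red) arrays, with circles, squares and triangles for replicates 1, 2 and 3 and black bars for mean and SD. Blue lines mark the lower quartile of the arrays (3.86 to 3.91) and yellow lines the median (5.63 to 5.67). Adamdec1 goes from below the blue line to far above the yellow one, Pla2g7 goes from around the blue line to above the yellow one, Nrn1 lies above the yellow line in both groups, and both Adam28 probe sets overlap between the groups.

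Adam28, which encodes transmembrane and secreted metalloproteases first described in lymphocytes, did not share the pattern of its neighbour. Its brighter probe set had intensities of 48.2, 30.9 and 43.3 in WT cells, against 38.1, 95.8 and 70.9 in N1-IC cells. N1-IC replicates 2 and 3 were above every WT array, and N1-IC replicate 1 lay inside the WT range, so the groups overlapped. The means were 5.33 ± 0.333 in WT and 5.99 ± 0.677 in N1-IC (log2, SD, n = 3). The difference of 0.67 ± 0.36 did not pass limma's test over all genes (adjusted p = 0.632), where 0.0055% of the 18194 genes, a single gene, passed.

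The dimmer Adam28 probe set read 2.47, 2.83 and 2.74 log2 units in WT and 2.72, 3.24 and 2.91 in N1-IC. Between 1.29% and 13.6% of probe sets were dimmer on each array, and its difference was 0.27 with overlapping groups. The brighter of the probe sets is of the Affymetrix class that hybridises to several transcripts of a gene, so the pair need not report the same isoforms of Adam28. Without N1-IC replicate 1 the difference of the brighter probe set was 1.04, and without N1-IC replicate 2 it was 0.375, so the value rests on single arrays.

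Pla2g7 was dim in WT cells and above the array median in every N1-IC sample. Its intensities were 11.8, 15.5 and 21.4 in WT cells, against 83.3, 247.0 and 445.4 in N1-IC cells. The groups did not overlap, with a gap of 1.96 log2 units, and N1-IC replicate 1 was again the lowest of its group. The means were 3.98 ± 0.43 in WT and 7.71 ± 1.23 in N1-IC (log2, SD, n = 3), a difference of 3.73 ± 0.61, the fourth largest of 18194 genes. Between 19.4% and 33.6% of probe sets were dimmer than Pla2g7 on the WT arrays, which places its WT signal near the lower quartile too. On N1-IC replicates 1, 2 and 3 the shares were 57.2%, 69.5% and 75.6%, so replicate 1 was only modestly above the median. With 64 units added the difference was 1.83.

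Nrn1 differed least of the 3 chosen genes and was the most even between replicates. Its intensities were 127.3, 134.0 and 140.3 in WT cells, against 339.9, 405.2 and 330.1 in N1-IC cells. All 3 N1-IC arrays lay above all WT arrays by at least 1.23 log2 units, while the range within a group was 0.14 in WT and 0.29 in N1-IC. The means were 7.06 ± 0.0697 and 8.48 ± 0.16 (log2, SD, n = 3), a difference of 1.42 ± 0.11 and a ratio of geometric means of 2.67. Unlike Adamdec1 and Pla2g7, its WT signal was above that of 61.6% to 63.3% of probe sets, and with 64 units added the difference was 1.09. In the order of positive differences Nrn1 stood at place 60, between the granule gene Ngp at 1.42 and Lrrc4c at 1.40.

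In 3 of the 4 genes the lowest N1-IC array exceeded the highest WT array by the brightest probe set, as it did in 8.32% of all genes, while 6.52% of all genes lay the other way round. Since the difference chose 3 of them, this count is not a result about the set.

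The N1-IC arrays were not equally high for the chosen genes. Measured from the WT mean, Adamdec1 stood at 6.76, 9.18 and 9.36 log2 units on N1-IC replicates 1, 2 and 3. Pla2g7 stood at 2.40, 3.97 and 4.82 on the same arrays. Nrarp, whose product limits Notch signalling by feedback, stood at 1.15, 2.88 and 4.47, and Hes1, a transcriptional repressor, at 0.60, 0.96 and 2.04. Replicate 1 was the lowest and replicate 3 the highest for all 4 of these genes. The remaining Notch feedback genes of the list were mixed. Replicate 1 was the lowest N1-IC array for Dtx1, Notch3 and Myc, but not for Hey1 (5.19, 5.06 and 5.21), Hes5 and Heyl. Nrn1 was nearly flat, at 1.35, 1.6 and 1.3, and Adam28 ran from -0.07 through 1.26 to 0.82. With 3 arrays such an order carries no test.

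**Figure D2:**
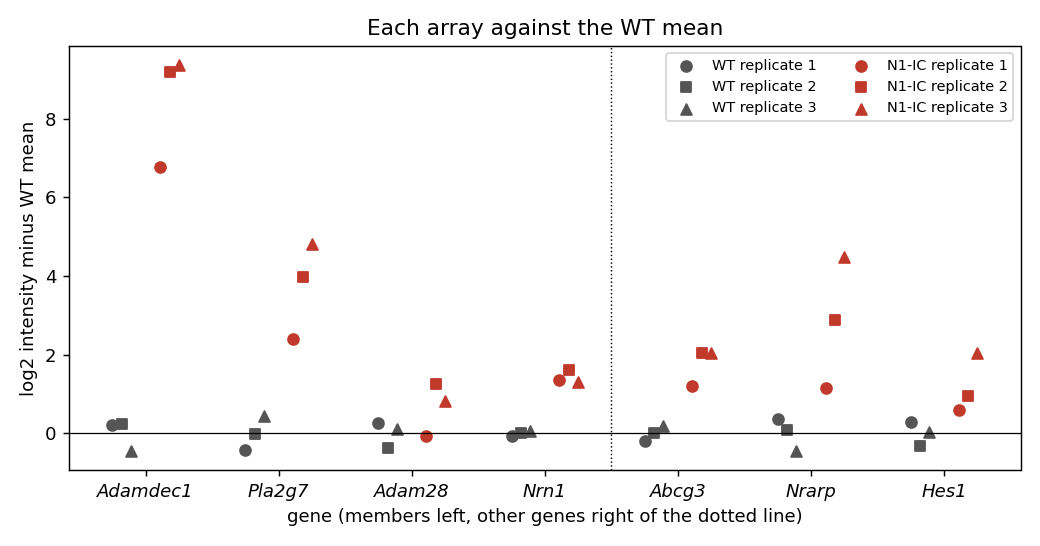
Log2 intensity minus the WT mean (vertical axis) for the 4 members and, right of the dotted line, for Abcg3, Nrarp and Hes1, with grey symbols for WT and red for N1-IC arrays. N1-IC replicate 1 (red circles) is the lowest of its group for every gene shown other than Nrn1, where it stands at 1.35 between 1.3 and 1.6. Abcg3 was picked for its likeness to Adamdec1 and Pla2g7 on these arrays, so its order is no separate support.

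Over the whole list of Notch feedback genes, Nrarp and Hes1 included, the differences ran from -0.61 to 2.83. Of 8 measured genes 5 had a higher N1-IC mean and 3 a lower mean, 0 passed limma's adjusted test and 3 had an unadjusted p under 0.05, which 7.98% of all genes had. These were Nrarp (2.83 ± 0.80), Hes1 (1.20 ± 0.38) and Hey1 (0.35 ± 0.089), each with an adjusted p of 0.618. The other probe set of Nrarp had a difference of 1.94 with overlapping groups. Hes5, Heyl, Dtx1, Notch3 and Myc had differences of 0.11, 0.17, -0.09, -0.61 and -0.55, and their groups overlapped. The median over the 8 genes was 0.14, beside 0.01 over all genes.

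The genes whose log2 values over the 6 arrays most resembled each member were taken among 2764 genes that varied by at least 1 log2 unit. Such correlations over 6 arrays that fall into separate groups are a description. Abcg3, of the ABC transporter family, was closest to both Adamdec1 (r = 0.98) and Pla2g7 (r = 0.993). It read 6.05, 6.26 and 6.45 in WT cells, against 7.46, 8.28 and 8.30 in N1-IC cells, with N1-IC replicate 1 the lowest of its group. Its difference was 1.76 ± 0.25, its other probe set had 1.61 with groups that did not overlap, and its adjusted p was 0.618.

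Next to Adamdec1 stood the interferon-stimulated gene Oasl2 (r = 0.975) and the dicarboxylate transporter gene Slc13a2 (r = 0.961). Pla2g7 was followed by 2610528A11Rik (r = 0.97), with a difference of 2.18 ± 0.51, and Ociad2 (r = 0.957), with 1.25 ± 0.30. For Nrn1 the closest genes were Slc13a2 (r = 0.986), Dok2 (r = 0.974), which encodes an adaptor that restrains myeloid signalling, and Oasl2 (r = 0.959). Slc13a2, Dok2 and Oasl2 had differences of 0.74, 0.91 and 0.85, none of which passed the adjusted test (adjusted p of 0.618 for each in limma). Adam28 had other company, with Angptl7 (r = 0.989), Bhlhe40 (r = 0.983), a circadian and immune transcription factor gene, and Stx19 (r = 0.978), all with overlapping groups and differences of 0.79, 0.47 and 0.52.

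Since Adamdec1 had the largest positive difference of all genes, the genes around it on chromosome 14 had to lie lower, and they are given as a description. Its nearest measured neighbours are Adam7, an ADAM gene known from the epididymis, and Adam28. Adam7 read 4.72, 4.18 and 4.62 in WT and 4.63, 4.83 and 4.85 in N1-IC, with overlapping groups and a difference of 0.27 ± 0.16. Of the 9 neighbours that are not members, 5 had a higher N1-IC mean and 4 a lower mean, with differences from -0.11 to 0.43. The highest was Dock5, an exchange factor gene, whose brightest probe set did not overlap between the groups while its other probe sets, at -0.07 and 0.27, overlapped.

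The neighbours of Pla2g7 on chromosome 17 and of Nrn1 on chromosome 13 had differences from -0.20 to 0.76 and from -0.28 to 0.37. Beside Pla2g7 the highest was Cyp39a1, an oxysterol hydroxylase gene, at 0.76 with overlapping groups, and 2 of 10 neighbours, Adgrf1 (0.31) and Enpp5 (0.48), did not overlap. Beside Nrn1 the coagulation factor gene F13a1 was at 0.37 with overlapping groups, and Ly86, which encodes the partner of a Toll-like receptor relative, was lower on every N1-IC array at -0.28. Over the loci of all 4 members there were 30 distinct neighbours, of which 0 passed limma's adjusted test. Among the 30, 3 had an unadjusted p under 0.05 in limma, which 7.98% of all genes had. Likewise 3 were higher on every N1-IC array, beside 8.32% of all genes, so these counts do not set the neighbours apart.

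**Figure D3:**
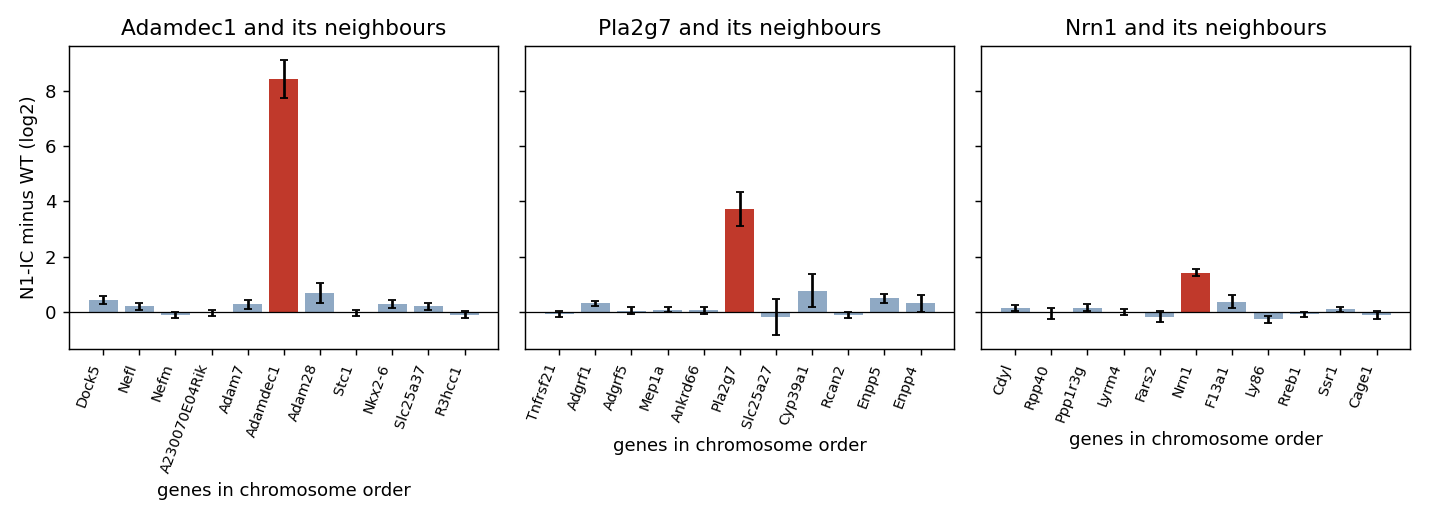
N1-IC minus WT difference on the log2 scale (vertical axis, bars with limma's moderated standard errors) for Adamdec1, Pla2g7 and Nrn1 in red and for the 5 nearest measured genes on each side in blue, in chromosome order. The red bars reach 8.43, 3.73 and 1.42, while the blue bars lie between -0.28 and 0.76.

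Other ADAM genes are given as a description, since none could match Adamdec1, whose positive difference was the largest of all 18194 genes. Of 12 measured relatives 6 had a higher N1-IC mean and 6 a lower mean. In limma 0 of them passed the adjusted test and 2 had an unadjusted p under 0.05, which 7.98% of all genes had. The membrane proteases Adam9 and Adam10, the latter known to cut Notch receptors, had differences of 0.38 ± 0.14 and 0.17 ± 0.092. Both were higher on every N1-IC array by the brightest probe set, and the other probe sets of Adam10 overlapped. Adam33 was at 0.29 and Adam12 at -0.34, both at low signal. Adam17, another protease of Notch receptors, was at -0.22 with overlapping groups. The median over the list was -0.05.

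In the list of PAF and oxidised phospholipid handling, in which Pla2g7 acts, 12 of 20 genes had a higher mean in N1-IC and 8 a lower mean. In limma 0 of them passed the adjusted test and 3 had an unadjusted p under 0.05, beside 7.98% of all genes. Lpcat2, which encodes an acyltransferase that makes PAF in activated myeloid cells, was the furthest apart. It read 5.21, 6.69 and 6.28 in WT and 7.89, 8.66 and 7.19 in N1-IC, so the groups did not overlap and WT replicate 1 was the lowest array. Its difference was 1.85 ± 0.50 (adjusted p = 0.618), and its other probe set had 0.91 without overlap.

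Pafah2, an intracellular enzyme that like Pla2g7 hydrolyses oxidised phospholipids, was at 0.40 ± 0.12, and its groups did not overlap. The calcium-independent phospholipase gene Pla2g6 was at -0.56 with overlapping groups. Gpx4, which reduces lipid peroxides, was lower on every N1-IC array by its brightest probe set, at -0.14, and its other probe set overlapped at -0.19. The PAF receptor gene Ptafr had a difference of -0.02, and the leukotriene genes Alox5, Alox5ap and Lta4h had 0.13, 0.07 and -0.04. The median over the list was 0.07.

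For Nrn1 the comparison list held its paralogue Nrn1l, GPI-anchoring enzymes and other GPI-anchored proteins. Of 14 genes 7 had a higher N1-IC mean and 7 a lower mean, 0 passed limma's adjusted test and 0 had an unadjusted p under 0.05, with a median of 0.02. Nrn1l was at -0.10 with overlapping groups. Among the anchoring enzymes Gpaa1, of the transamidase, was lower on every N1-IC array by its brightest probe set, at -0.24. Another of its probe sets was higher on every N1-IC array at 0.30, and the remaining one overlapped at 0.08. Pigt and Piga were at -0.18 and 0.35 with overlapping groups. The anchored protein gene Ly6e was lower on every N1-IC array by its brightest probe set, at -0.13, and its other probe set overlapped at -0.89.

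Adamdec1 and Pla2g7 are known from macrophages and dendritic cells, so markers of these cells were set beside them. Of 19 measured macrophage markers 10 had a higher N1-IC mean and 9 a lower mean, and the median difference was 0.02. In limma 0 of the 19 passed the adjusted test and 5 had an unadjusted p under 0.05, which 7.98% of all genes had. On every N1-IC array 4 of the 19 were higher and 1 was lower, beside 8.32% and 6.52% of all genes. The summed intensity of the macrophage markers was 17259 to 23725 on the WT arrays and 12607 to 17459 on the N1-IC arrays. Bright genes such as Lyz2, at 12.56 to 13.49 log2 units, carry much of this sum, so it says little of the dimmer markers. The mannose receptor gene Mrc1 read 4.43, 5.99 and 5.31 in WT and 6.11, 6.41 and 7.27 in N1-IC, a difference of 1.36 ± 0.46 without overlap. The complement genes C1qa, C1qb and C1qc had 0.45, 0.74 and 0.40 at low signal, between 3.54 and 5.72 log2 units. A further probe set of C1qb had a difference of 1.97, at 4.11, 6.29 and 6.54 on N1-IC replicates 1, 2 and 3, above its WT values of 3.99, 3.19 and 3.85. The brightest C1qb probe set and the remaining one, which was at 0.26, had overlapping groups. Vcam1, an adhesion molecule of marrow macrophages and stroma, was lower on every N1-IC array, at -1.17 ± 0.36, with -0.92 and -0.82 for its other probe sets, of which the first overlapped. Csf1r, Cd68 and Adgre1 were at -0.35, -0.46 and -0.57 with overlapping groups, and Timd4 and Cd5l, markers of resident macrophages, stayed between 3.34 and 3.89 on all arrays. The 10 measured dendritic cell markers had 5 higher and 5 lower, with a median of 0.01 and 0 with an unadjusted p under 0.05 in limma. Their summed intensity ran from 3660 to 5828 over the WT arrays and from 3243 to 3898 over the N1-IC arrays. Of them Xcr1 and Cd209a were under the lower quartile of every array. Itgax was higher on every N1-IC array, at 0.73 ± 0.33, and Siglech was lower on every N1-IC array, at -0.13. Irf8 was at -0.48 with overlapping groups. In sorted bulk RNA more cells with a transcript and more transcript per cell cannot be told apart, and a part of other cells in the values of the members was not tested.

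The gate genes were present on all arrays, with Kit at 10.23 to 10.76, Cd34 at 10.05 to 11.69 and Fcgr3 at 12.60 to 13.12 log2 units. Cd34 was lower on every N1-IC array, at 11.04, 10.05 and 11.28 against 11.69, 11.52 and 11.33 in WT, a difference of -0.72 ± 0.32. The other measured gate genes overlapped between the groups, and the means of Kit, 10.53 in WT and 10.52 in N1-IC, were nearly equal. All 4 measured gate genes had a lower N1-IC mean, with a median of -0.21. In limma 0 of them passed the adjusted test or had an unadjusted p under 0.05. Mast cell and basophil markers summed to between 3897 and 8812 in WT and between 3103 and 5950 in N1-IC, B cell markers to 2343 to 3063 and 2877 to 3286, T cell markers to 261 to 328 and 240 to 327, and stromal and endothelial markers to 798 to 1695 and 584 to 689. All 10 late granulocyte markers had a higher N1-IC mean (median 0.97), and 8 of 11 erythroid and megakaryocyte markers a lower mean (median -0.79). By summed intensity, to which bright genes add most, both shifts lean on single WT arrays. WT replicate 1 read lowest for all 10 late granulocyte markers, while the sums of WT replicates 2 and 3 (61384 and 57561) fell inside the N1-IC range (50163 to 67456). The erythroid and megakaryocyte sum was 12742 for WT replicate 2, but 940 and 1162 for WT replicates 1 and 3, near the N1-IC range (526 to 1139). Single genes need not follow the sums. Mmp9 read 8.59, 9.27 and 8.78 in N1-IC, above WT replicates 2 and 3 at 7.36 and 7.01, and its other probe set overlapped at 0.74. Pf4 read 8.75, 9.09 and 7.39 in WT and 6.51, 6.87 and 7.39 in N1-IC. Mast cell and basophil markers had 6 higher and 2 lower means (median 0.04), B cell markers 5 and 3 (0.04), T cell markers 4 and 4 (0.03), and stromal and endothelial markers 4 and 5 (-0.08). In none of these lists did a gene pass limma's adjusted test, and 1, 1, 0, 1, 0 and 1 genes had an unadjusted p under 0.05, in the order given. Over all genes 7.98% had such a p. The list genes with such a p were Mmp9 (2.71 ± 0.84), Pf4 (-1.48 ± 0.47), Cd22 (2.08 ± 0.64) and Pdgfrb (-0.82 ± 0.30). Cd22 was higher on every N1-IC array by each of its probe sets, at 2.08 and 2.13. Pdgfrb was lower on every N1-IC array by each of its probe sets, at -0.82 and -1.82.

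The differences of the chosen genes moved little without the arrays that stood apart. Without WT replicate 1 they were 8.55 for Adamdec1, 3.52 for Pla2g7 and 1.38 for Nrn1, and without WT replicate 2 they were 8.55, 3.72 and 1.42. WT replicate 3, which over all genes correlated more closely with the N1-IC arrays (0.9901 to 0.992) than with WT replicates 1 and 2 (0.9894 and 0.9884), had the lowest Adamdec1 of all arrays and the highest Pla2g7 and Nrn1 of the WT arrays. Without it the differences were 8.21, 3.95 and 1.45. The 3 measured Y-linked genes were lower on every N1-IC array (median -4.91), and among them Eif2s3y passed limma's adjusted test, at -7.75 ± 0.29 (adjusted p = 0.00229). The 6 measured genes of the X inactivation list had higher N1-IC means (median 0.29), of which 4 had an unadjusted p under 0.05 and 0 passed limma's adjusted test. All 4 members lie on autosomes, which does not separate an effect of sex from an effect of the allele.

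**Figure D4:**
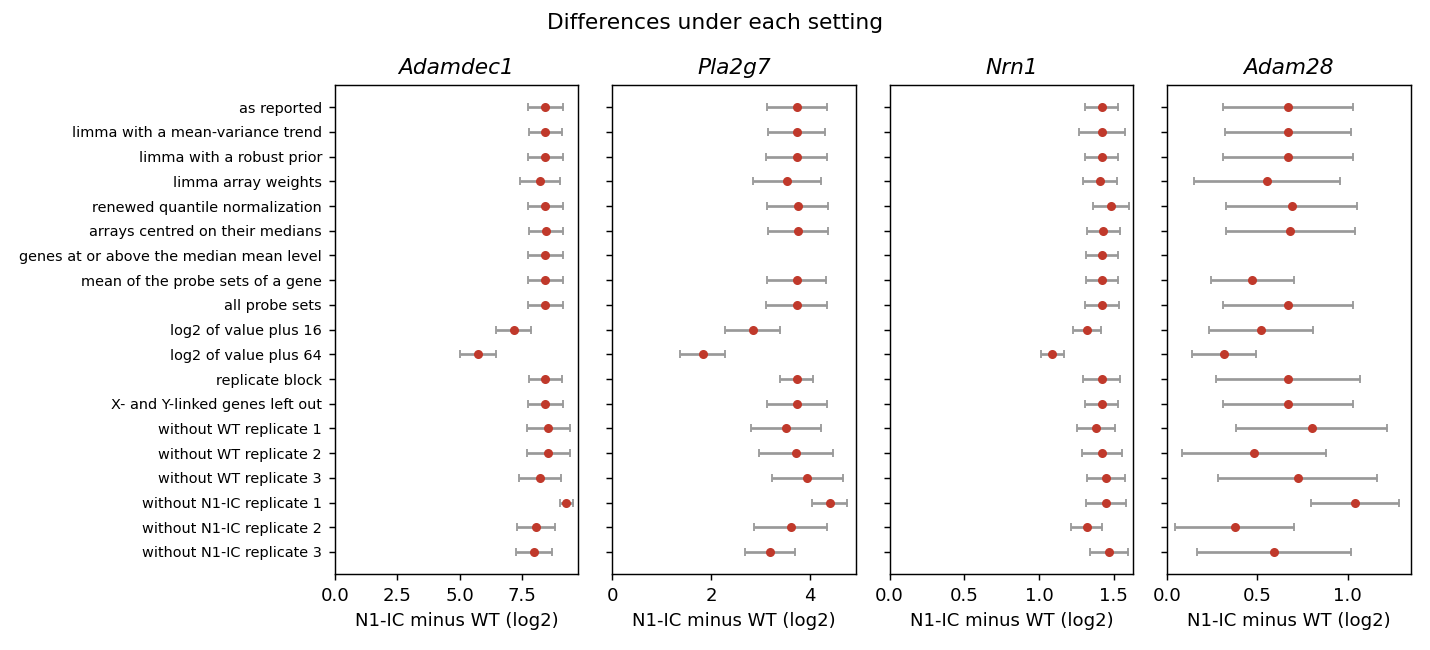
N1-IC minus WT difference on the log2 scale (horizontal axis, points with limma's moderated standard errors) for each member under each setting, named at the left. With 64 units added the points move to 5.73 for Adamdec1, 1.83 for Pla2g7, 1.09 for Nrn1 and 0.316 for Adam28, whose highest point is 1.04 without N1-IC replicate 1. All points lie above 0, while Pla2g7 and Adam28 have no point in the setting of genes at or above the median level.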

How the data were processed

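The values deposited by the authors are linear intensities for each probe set on each array. RMA is the tool in the submitters' processing notes, with its version not given in the sources used here. Array medians were 49.6 to 51.0, so the authors' values were already on a common scale, and a change is relative to the rest of an array. The number of arrays limits the precision. Values were taken to log2 without an offset, since the deposited intensities were not on a log2 scale.

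Of the probe sets 34958 had 1 gene symbol, 932 several and 9211 none, and 34754 were matched by Entrez identifier to RefSeq (GRCm38.p6). A gene is represented by its brightest probe set over the 6 arrays unless stated. N1-IC was compared with WT over all 18194 genes in limma 3.58.1 (R 4.3.3, lmFit and eBayes, no replicate block). The threshold was a Benjamini-Hochberg adjusted p under 0.05. The fit was also run on simulated data with normal errors drawn from limma's own prior. Those data held no arrays that stood apart, so that run cannot vouch for the fit on these arrays.

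The members and the 15 lists (162 genes, 150 measured) were chosen with earlier results of these data known. The genes set for naming were all probe sets of the members, the 5 nearest measured genes on each side and the 3 genes with the highest correlation to each. Added to these were up to 4 genes with the smallest p per list, with Notch feedback, X- and Y-linked and gate genes in full. Not all of these genes are named in the text. From the late granulocyte, erythroid and megakaryocyte, B cell, and stromal and endothelial lists only Mmp9, Pf4, Cd22 and Pdgfrb were named by this rule. The mast cell and basophil list and the T cell list gave none. Further genes named from the lists or from the order of differences were chosen after their values were seen. Alternatives were a trend, a robust prior, array weights, 2 normalizations, a level filter, probe set rules, offsets, a replicate block, X- and Y-linked genes left out, and each array left out. Same-numbered arrays did not deviate together (r = 0.009, 0.061 and -0.11), so the numbers were not taken as pairs.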

Additional observations from a re-analysis of the deposited data

How the results depend on the processing

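The differences of the 4 members kept their sign in every alternative run. Adamdec1, Pla2g7 and Nrn1 were chosen by this difference and their groups did not overlap, so their kept sign is no support for it. Adding 16 units gave 7.16 for Adamdec1, and adding 64 gave 5.73 for Adamdec1, 1.83 for Pla2g7, 1.09 for Nrn1 and 0.316 for Adam28, since an added constant shrinks the difference of dim values. With each array left out in turn the differences were 7.97 to 9.27 for Adamdec1, 3.19 to 4.40 for Pla2g7, 1.32 to 1.47 for Nrn1 and 0.375 to 1.04 for Adam28. Under the level filter, which keeps genes no dimmer than the median gene, Pla2g7 and Adam28 were not tested.

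The number of genes past the adjusted threshold in limma, 1 as reported, was 3 with a mean-variance trend, 2 with array weights, 2 under the level filter, 5 with probe sets averaged per gene and 4 with all probe sets fitted. It was 0 with 64 units added, with the replicate block and without sex-linked genes, where 1529, 1162 and 1395 genes had an unadjusted p under 0.05. It was 0 to 5 with 1 array left out, with 0 without WT replicate 3 (2446 genes at an unadjusted p under 0.05), 5 without WT replicate 2, and 3 and 2 in the absence of N1-IC replicates 2 and 1. Of the 150 list genes 1 passed as reported, 2 with a trend, with array weights or with averaged probe sets, and 0 with 64 units added, with the block and without sex-linked genes. With 1 array left out it was 0 to 4, the extremes being WT replicates 3 and 2. These list counts were added after the data were seen. The replicate block left the members' differences at 8.43, 3.73, 1.42 and 0.669, and the numbers do not pair the arrays. The cause of these shifts was not tested. Whether the dim WT values of Adamdec1 and Pla2g7 exceed background is unknown, which limits both fold changes.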
